A study of Mus musculus with 24 samples.

Results

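Activated T helper cells of opposite histories were compared: WT Th2 cells restimulated with PMA and ionomycin, and WT Naïve CD4+ T cells activated through the T cell receptor and CD28. The comparison rested on 6 of the 24 arrays of the series, 3 for stimulated Th2 cells and 3 for stimulated Naïve cells, chosen by their sample labels alone. It covered 10418 genes, each read by the brightest of its probes on the Illumina MouseRef-8 v2 BeadChip, an array of short oligonucleotide probes on beads. The 12 arrays of resting WT cells and of stimulated BAF180-deficient cells in the same lineages were used beside them. BAF180, the product of Pbrm1, is a subunit of the PBAF form of the SWI/SNF chromatin remodelling complex, and its loss was the main question of the series.

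All cells began as Naïve CD4+ T cells, isolated at 95% purity from spleen and lymph nodes of mice aged 4 to 6 weeks. The labels give the strain as Balb/c, whereas the methods describe another background. Resting Naïve cells were used as isolated. Stimulated Naïve cells were cultured for 24 h on plates coated with 1 µg/ml anti-CD3 and 2 µg/ml anti-CD28, without added cytokines according to the labels. Resting Th2 cells were made from Naïve cells on the same coating with 10 ng/ml IL-4 and 10 µg/ml anti-IFN-gamma. IL-2 at 100 U/ml followed after 24 h, and from day 3 the cultures were expanded in IL-2. Stimulated Th2 cells were resting Th2 cells given 50 ng/ml PMA, which activates protein kinase C, and 500 ng/ml ionomycin, which raises calcium, for 1.5 h. BAF180-deficient cells came from mice with floxed Pbrm1 and a Cre transgene driven by the CD4 promoter, which acts late in thymocyte development and only in T lineage cells. Lineage, stimulus, time after stimulation and culture cytokines differed together between the stimulated states, so their parts in any difference below cannot be told apart. According to a legend on the Th2 data, the mice behind the arrays formed 3 pairs, each of a WT and a BAF180-deficient animal, so the replicates were taken as separate mice. Neither which letter marks which mouse nor whether Naïve and Th2 arrays of a letter share one is stated.

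Between 9351 and 10179 probes were detected on the 6 arrays at a detection p of at most 0.02. With 3 arrays in each group, precision is limited by their number. The replicate arrays correlated at 0.961 to 0.984 across probes in stimulated Th2 cells and at 0.976 to 0.982 in stimulated Naïve cells. Levels are given as background-corrected, quantile-normalized log2 intensities, on which the lowest detected probe of these arrays lay between 4.57 and 4.70. Probes differ in brightness, so levels were compared between groups and not between genes. A gene was called when the limma adjusted p was below 0.05 and the groups differed by at least 1 on the log2 scale, a 2-fold difference. Among called genes named below, Aldoc, Cdkn2b, Hspa5, Plk2 and S100a6 were detected on 1 of the 3 stimulated Naïve arrays and Havcr2, Il21, Tpbg and Upp1 on 2. Cxcl10, Fscn1, Ido1, Pacsin1, Snn and Zranb3 were detected on 1 of the 3 stimulated Th2 arrays, and Ccr7, Cd40, Cd86, Cxcr5, Espl1, Prim2, Pxylp1 and Tgfbr3 on 2. Differences of these genes rest in part on values that are not above background.

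Th2 cells are the helper cells of allergy and worm infection. IL-4 signalling through STAT6 raises GATA3, which opens the linked Il4, Il13 and Il5 genes, and renewed receptor signals then drive their transcription within hours through NFAT, AP-1 and NF-kappaB. A Naïve cell that meets antigen instead spends its first day growing, with a rise in metabolism and entry into the cell cycle, before it divides. PMA and ionomycin bypass the receptor and act on the same kinase and calcium pathways.

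The labels were first set against marker genes. Gata3, the master regulator of Th2 cells, read 10.61, 10.49 and 11.13 on the stimulated Th2 arrays and 8.92, 8.48 and 8.61 on the stimulated Naïve arrays. Every Th2 array lay above every Naïve array, and the difference of 2.07 (SE 0.18) had an adjusted p of 5.72e-08. Of the other Th2 markers, Il4, Il5 and Il13 were called higher and are described below. Ccr8 differed by 0.59 (adjusted p = 0.176), and Ccr4, Il1rl1 and Maf were at or near the lowest detected level in both states. The T cell genes Cd3e and Lck differed by 0.03 and 0.02, with levels between 9.53 and 10.77, and both of these small differences turned to -0.05 under Z-score normalization. The probe for Cd4 was dim on all 6 arrays (4.77 to 5.88) although the cells were selected as CD4+, so it was not informative here. Of the Naïve markers, Ccr7 was called lower in stimulated Th2 cells (-1.30), and Tcf7 and Lef1 differed by -0.98 and -0.48 without being called.

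Stimulated Th2 cells had 431 genes called higher (4.14% of 10418) and 421 called lower (4.04%) than stimulated Naïve cells. These shares are the background for the gene list counts below. The higher genes were further from equality: 116 of them differed by 2 or more on the log2 scale and 19 by 4 or more, whereas 27 of the lower genes differed by -2 or less. The median difference was 1.49 among the higher genes and -1.22 among the lower genes, and -0.02 over all genes. The 3 values per group did not overlap for 839 of the 852 called genes, where 36.0% of all genes were without overlap. In 48 of the higher genes no stimulated Naïve array, and in 14 of the lower genes no stimulated Th2 array, had a detected signal. In bulk samples of this kind, fewer cells that express a gene and less RNA per cell cannot be told apart. Leaving out any 1 array gave 409 to 443 higher and 374 to 484 lower genes. Without background correction the lower genes numbered 207.

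**Figure D1:**
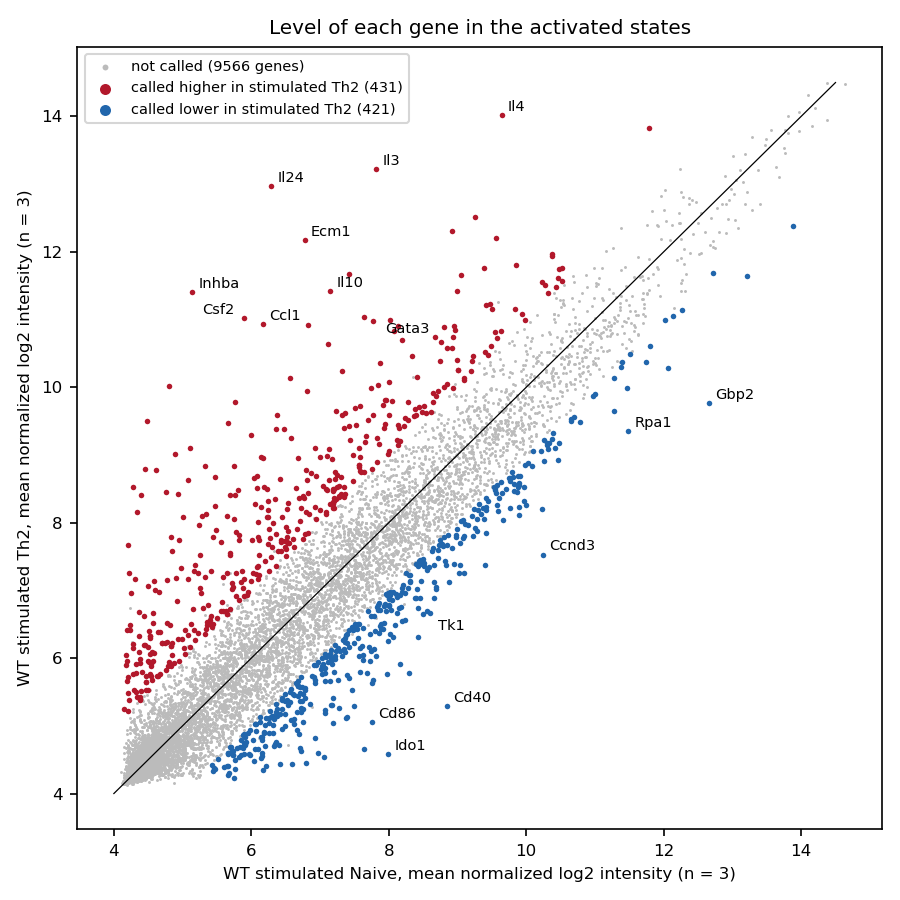
Mean normalized log2 intensity of each of 10418 genes in WT stimulated Naïve cells (x axis) and WT stimulated Th2 cells (y axis), n = 3 arrays each, with the line of equality. Red points are the 431 genes called higher and blue points the 421 called lower in stimulated Th2 cells. The red points reach further from the line than the blue points, with Il24 and Inhba more than 6 log2 units above it and Cd40 and Ido1 more than 3 below it.

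Among all called genes Il24 had the largest difference. It encodes an IL-10 family cytokine and read 12.44, 13.09 and 13.39 in stimulated Th2 cells against 6.00, 5.61 and 7.24 in stimulated Naïve cells, a difference of 6.69 (SE 0.48, adjusted p = 3.94e-09), or 103-fold. Inhba, which encodes the activin A subunit, read 11.50, 11.03 and 11.70 against 5.06, 5.07 and 5.30 and differed by 6.27 (SE 0.19, adjusted p = 4.77e-15). Both genes had groups far apart, and the spread within each group was small beside the gap. Ecm1, a secreted matrix protein that Th2 cells need to leave lymph nodes, read 12.25, 11.84 and 12.44 against 6.49, 6.77 and 7.07 (difference 5.40, adjusted p = 4.35e-14). Tpbg, a membrane glycoprotein also known as the 5T4 antigen, read 9.89, 9.28 and 10.88 against 5.14, 4.61 and 4.67 (5.21, adjusted p = 1.52e-09). Lilrb4a, an inhibitory receptor, was not detected on any stimulated Naïve array. It read 9.44, 9.45 and 9.61 in stimulated Th2 cells and was at least 28.7-fold higher there (adjusted p = 4.77e-15). Mmp10, a matrix metalloproteinase, was likewise undetected in stimulated Naïve cells and at least 14.7-fold higher in stimulated Th2 cells (adjusted p = 6.03e-07), with values of 8.75, 9.36 and 7.47. For the unnamed gene 1810009J06Rik the bound was 17.7-fold (adjusted p = 1.81e-09). Such bounds set the Th2 mean against the lowest detected level of the Naïve arrays.

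The promoters of Ecm1, Tpbg and Havcr2 (the checkpoint receptor TIM-3, described with the receptors) are shown because each holds the AP-1 motif TGANTCA, in capitals, searched on both strands. The windows run from 250 bases before to 50 after the outermost listed start of the gene (RefSeq, GRCm38.p6) and are printed 5′ to 3′ on the strand of the gene.
Ecm1, chr3:95739520-95739819, minus strand: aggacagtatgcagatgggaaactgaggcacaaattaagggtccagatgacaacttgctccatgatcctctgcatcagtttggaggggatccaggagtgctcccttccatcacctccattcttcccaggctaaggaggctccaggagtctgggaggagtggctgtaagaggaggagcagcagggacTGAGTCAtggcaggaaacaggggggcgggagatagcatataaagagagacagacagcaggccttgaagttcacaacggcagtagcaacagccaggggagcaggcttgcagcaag
Tpbg, chr9:85842130-85842429, plus strand: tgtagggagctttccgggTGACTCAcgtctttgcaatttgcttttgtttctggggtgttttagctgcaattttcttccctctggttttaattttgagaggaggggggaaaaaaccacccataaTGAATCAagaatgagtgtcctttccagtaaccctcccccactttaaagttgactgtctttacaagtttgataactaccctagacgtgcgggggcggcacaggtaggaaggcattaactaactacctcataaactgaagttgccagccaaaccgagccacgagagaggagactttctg
Havcr2, chr11:46454681-46454980, plus strand: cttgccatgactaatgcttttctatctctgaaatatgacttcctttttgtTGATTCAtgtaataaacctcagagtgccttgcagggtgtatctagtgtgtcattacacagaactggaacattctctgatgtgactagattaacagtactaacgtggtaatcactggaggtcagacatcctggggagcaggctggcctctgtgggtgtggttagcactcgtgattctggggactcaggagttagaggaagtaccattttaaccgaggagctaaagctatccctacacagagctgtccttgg
The motif stood at -64 in Ecm1, at -232 and -127 in Tpbg and at -200 in Havcr2, counted from the start site to the first base of the match. Across promoters of this length, 11.6% of 336 genes called higher, 3.52% of 341 called lower and 5.47% of 8258 tested genes held it, and 7.92% of all 27025 promoters in the table. A match in these letters is a description of the sequence and not evidence of binding.

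Type 2 cytokine genes and the cytokines of the IL-3 locus formed the list with the largest median difference. Of 10 genes listed, 9 were on the array and 8 passed the detection filter. All 8 of these were called higher in stimulated Th2 cells (background 4.14%), with a median of 4.33. The filter favours genes that are bright in at least 1 state, so the 8 do not stand for the whole list. Il4, the cytokine that defines the lineage, read 14.08, 14.02 and 13.97 in stimulated Th2 cells and 10.27, 9.27 and 9.40 in stimulated Naïve cells. That difference of 4.38 (SE 0.49, adjusted p = 1.62e-06) is 20.8-fold, and the groups lay far apart. Its level in stimulated Naïve cells was close to the 9.43 of resting Th2 cells.

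Il13, which drives mucus production and airway reactivity, read 8.17, 8.02 and 8.49 against 6.50, 5.80 and 6.12. Il5, which supports eosinophils, read 8.19, 8.62 and 8.40 against 6.31, 5.34 and 5.41. Both were detected on all 6 arrays without overlap, and they differed by 2.08 (SE 0.27, adjusted p = 1.19e-05) and 2.72 (SE 0.29, adjusted p = 8.58e-07). Their differences were smaller than those of Il3 and Csf2, which lie further along chromosome 11. Il3, a growth factor for mast cells and basophils, read 13.60, 13 and 13.09 against 8.73, 7.36 and 7.35 (difference 5.41, SE 0.42, adjusted p = 1.12e-08). Csf2, which encodes GM-CSF, read 11.01, 10.96 and 11.07 against 6.49, 5.64 and 5.55 (5.12, SE 0.22, adjusted p = 1.33e-12). In each of Il4, Il5, Il3 and Csf2 the Naïve array A was the highest of its group. Il10, an anti-inflammatory cytokine, read 11.53, 10.95 and 11.77 against 7.53, 7.06 and 6.84 (4.27, SE 0.56, adjusted p = 1.19e-05). Areg, which encodes the EGF receptor ligand amphiregulin, read 9.07, 8.12 and 8.68 against 5.07, 4.85 and 5.32 (3.55, SE 0.32, adjusted p = 1.01e-07). No gene of the 8 had overlapping groups.

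**Figure D2:**
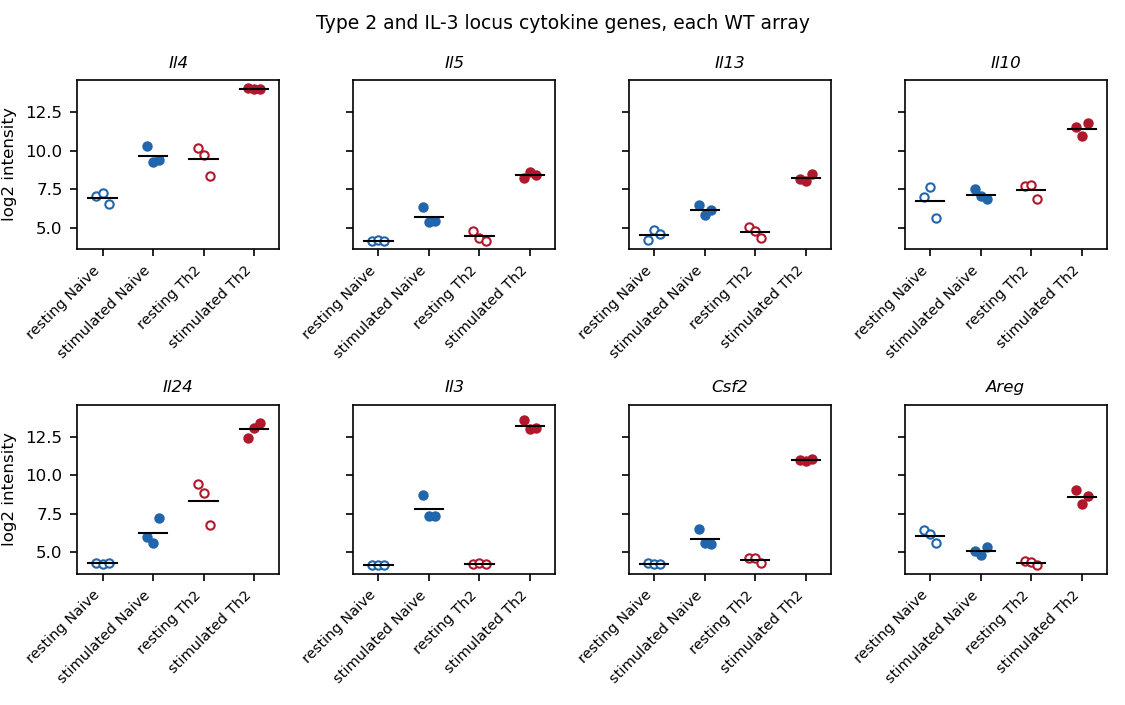
Normalized log2 intensity of the 8 measured genes of the type 2 and IL-3 locus list on each of the 12 WT arrays; points are arrays (n = 3 per state, open at rest and filled when stimulated, blue Naïve and red Th2) and bars are means. All 8 genes lie higher on every stimulated Th2 array than on every other array shown. Stimulated Naïve cells show Il4 at about the level of resting Th2 cells.

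The promoters of the 5 chromosome 11 cytokine genes are printed with the NFAT core GGAAA and its reverse complement TTTCC in capitals, because NFAT is the factor that calcium signals activate. Sequence and windows are as above.
Il4, chr11:53618616-53618915, minus strand: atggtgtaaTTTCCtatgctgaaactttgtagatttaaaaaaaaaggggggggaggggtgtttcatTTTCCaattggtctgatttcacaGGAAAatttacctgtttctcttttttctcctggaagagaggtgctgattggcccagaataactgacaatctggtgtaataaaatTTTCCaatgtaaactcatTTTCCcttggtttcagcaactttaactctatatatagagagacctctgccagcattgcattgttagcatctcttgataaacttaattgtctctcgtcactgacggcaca
Il13, chr11:53634653-53634952, minus strand: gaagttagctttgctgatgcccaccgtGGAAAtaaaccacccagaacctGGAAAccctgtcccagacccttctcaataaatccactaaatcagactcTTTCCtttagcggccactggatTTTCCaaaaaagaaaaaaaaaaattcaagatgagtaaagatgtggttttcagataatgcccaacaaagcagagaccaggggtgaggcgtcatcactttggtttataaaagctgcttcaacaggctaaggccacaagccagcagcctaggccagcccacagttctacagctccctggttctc
Il5, chr11:53720544-53720843, plus strand: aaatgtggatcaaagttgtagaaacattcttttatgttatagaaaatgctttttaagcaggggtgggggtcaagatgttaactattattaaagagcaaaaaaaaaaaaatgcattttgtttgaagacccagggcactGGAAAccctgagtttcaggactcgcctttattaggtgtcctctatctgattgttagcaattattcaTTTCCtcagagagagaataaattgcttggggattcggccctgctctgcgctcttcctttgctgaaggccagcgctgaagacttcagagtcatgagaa
Csf2, chr11:54249850-54250149, minus strand: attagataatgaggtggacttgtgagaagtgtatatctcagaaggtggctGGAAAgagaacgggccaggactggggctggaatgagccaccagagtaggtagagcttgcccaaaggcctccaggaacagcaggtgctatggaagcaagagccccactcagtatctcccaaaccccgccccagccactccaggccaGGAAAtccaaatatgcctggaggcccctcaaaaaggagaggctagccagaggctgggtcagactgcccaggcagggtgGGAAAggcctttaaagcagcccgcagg
Il3, chr11:54267230-54267529, minus strand: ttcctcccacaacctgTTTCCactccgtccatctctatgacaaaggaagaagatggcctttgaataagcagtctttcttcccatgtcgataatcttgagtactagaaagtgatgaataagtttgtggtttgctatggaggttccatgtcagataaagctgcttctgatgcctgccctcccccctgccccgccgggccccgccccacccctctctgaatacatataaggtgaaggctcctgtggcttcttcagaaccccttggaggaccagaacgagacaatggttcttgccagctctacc
Within these windows Il4 held 5 matches, Il13 4, Csf2 3, Il5 2 and Il3 1. This short core was present in 63.4% of promoters of genes called higher, 61.9% of those called lower and 59.8% of all tested genes. The joined motif GGAAA, 3 bases and TGANTCA was in no promoter of a called gene.

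Neighbouring genes were read beside these loci. Beside the Il4, Il13 and Il5 genes on chromosome 11, Kif3a differed by -0.12 (adjusted p = 0.728). Rad50, a DNA repair gene that lies between Il13 and Il5 and carries the locus control region of the cluster, differed by -0.90 (adjusted p = 3.59e-05), and Irf1 by -0.69. At the IL-3 locus, Pdlim4 was called lower in stimulated Th2 cells (-1.39, adjusted p = 0.00531), where 1 of 3 arrays detected it. Acsl6 and P4ha2 differed by -0.06 and -0.04, but each was detected on only 1 of 3 arrays in either state and is little informative. Around the IL-10 family genes on chromosome 1 the neighbours were mixed. Fcmr differed by 2.46 (adjusted p = 9.00e-06) and Mapkapk2, a kinase of the p38 pathway, by 2.37 (adjusted p = 8.88e-07), both past the threshold. Dyrk3, the next gene after Mapkapk2, was detected on all 3 arrays of both states and differed by 0.15 (adjusted p = 0.791). Il19, which lies between Il24 and Il10, was not detected in either state, and Il20 and Pigr did not pass the detection filter.

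Of 16 other T cell cytokine genes listed, 14 were measured, of which 9 were called higher and none lower in stimulated Th2 cells. Tnf, the prototype inflammatory cytokine, read 9.81, 9.19 and 9.96 against 7.58, 7.17 and 6.92 (difference 2.43, SE 0.32, adjusted p = 1.43e-05). Il17a, the signature cytokine of Th17 cells, read 7.31, 7.07 and 9.23 against 5.84, 5.15 and 6.34 (2.09, SE 0.39, adjusted p = 0.000511). Array C carried the high Il17a value in both states. Ifng, the signature cytokine of Th1 cells, read 11.11, 10.21 and 11.14 against 10.12, 8.96 and 9.57. Its groups lay close to each other. The difference of 1.27 (SE 0.40, adjusted p = 0.0301) lost its call when stimulated Th2 array A or C or stimulated Naïve array B or C was left out (0.97 to 1.57 without 1 array). Tbx21, the Th1 regulator, differed by 0.56 (adjusted p = 0.186). Il21 differed by 1.83 (adjusted p = 0.0404), but its groups overlapped, because array C was low in both states (6.22 and 4.53), and without 1 array the value ranged from 0.97 to 2.76. It lost its call without Th2 array A or B or Naïve array C. Lif, Tgfb1, Il1a, Ltb and Il18 made up the rest of the calls, with differences from 1.26 to 1.92. Il18 was undetected in stimulated Naïve cells and at least 2.90-fold higher in stimulated Th2 cells (adjusted p = 4.22e-06). Osm (0.26) and Il16 (-0.10) were the brightest members without a call.

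TNF family ligands also stood higher in stimulated Th2 cells: 7 of 8 measured genes were called, with a median of 1.99. Tnfsf14, which encodes the costimulator LIGHT, read 9.86, 9.03 and 9.52 against 5.63, 5.60 and 5.73 (difference 3.82, SE 0.20, adjusted p = 2.57e-11). Tnfsf11, which encodes the osteoclast factor RANKL, read 9.03, 8.68 and 8.81 against 5.57, 5.56 and 4.83 (3.52, SE 0.22, adjusted p = 6.83e-10). Both were near the lowest levels of the array at rest, with Tnfsf11 at 4.51 in resting Th2 cells. Cd40lg, the ligand by which helper T cells license B cells, read 6.13, 6.10 and 6.22 and was undetected in stimulated Naïve cells, at least 2.83-fold lower there (adjusted p = 2.18e-09). Fasl, the death ligand, differed by 2.16, Tnfsf8 by 2.05, Cd70 by 1.93 and Tnfsf9 by 1.34. Tnfsf4, the OX40 ligand, differed by 0.33 (adjusted p = 0.0536).

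Of 12 chemokine genes listed, 9 were measured, 5 of them called higher and 1 lower. Ccl1, which attracts CCR8-bearing Th2 cells, read 11.32, 10.57 and 10.91 against 6.82, 6.48 and 5.20 (difference 4.77, SE 0.33, adjusted p = 2.70e-09). Ccl3 read 12.36, 11.81 and 13.36 against 9.49, 9.01 and 9.25 (3.26, SE 0.41, adjusted p = 8.16e-06), and Ccl4 read 14.20, 13.66 and 13.63 against 12.22, 11.58 and 11.55 (2.05, SE 0.63, adjusted p = 0.0243). These inflammatory chemokines were bright in both activated states. Ccl5, another inflammatory chemokine, differed by 3.31 (adjusted p = 7.39e-06). Cxcl2, a neutrophil attractant, was undetected in stimulated Naïve cells and at least 8.08-fold higher in stimulated Th2 cells (adjusted p = 9.47e-05). Cxcl10, an interferon-induced chemokine, went the other way, at 4.41, 4.35 and 4.66 in stimulated Th2 cells against 6.67, 5.78 and 5.68 (-1.57, adjusted p = 0.00219). Xcl1 (-0.07) and Ccl9 (0.23) had overlapping groups and wide spread.

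**Figure D3:**
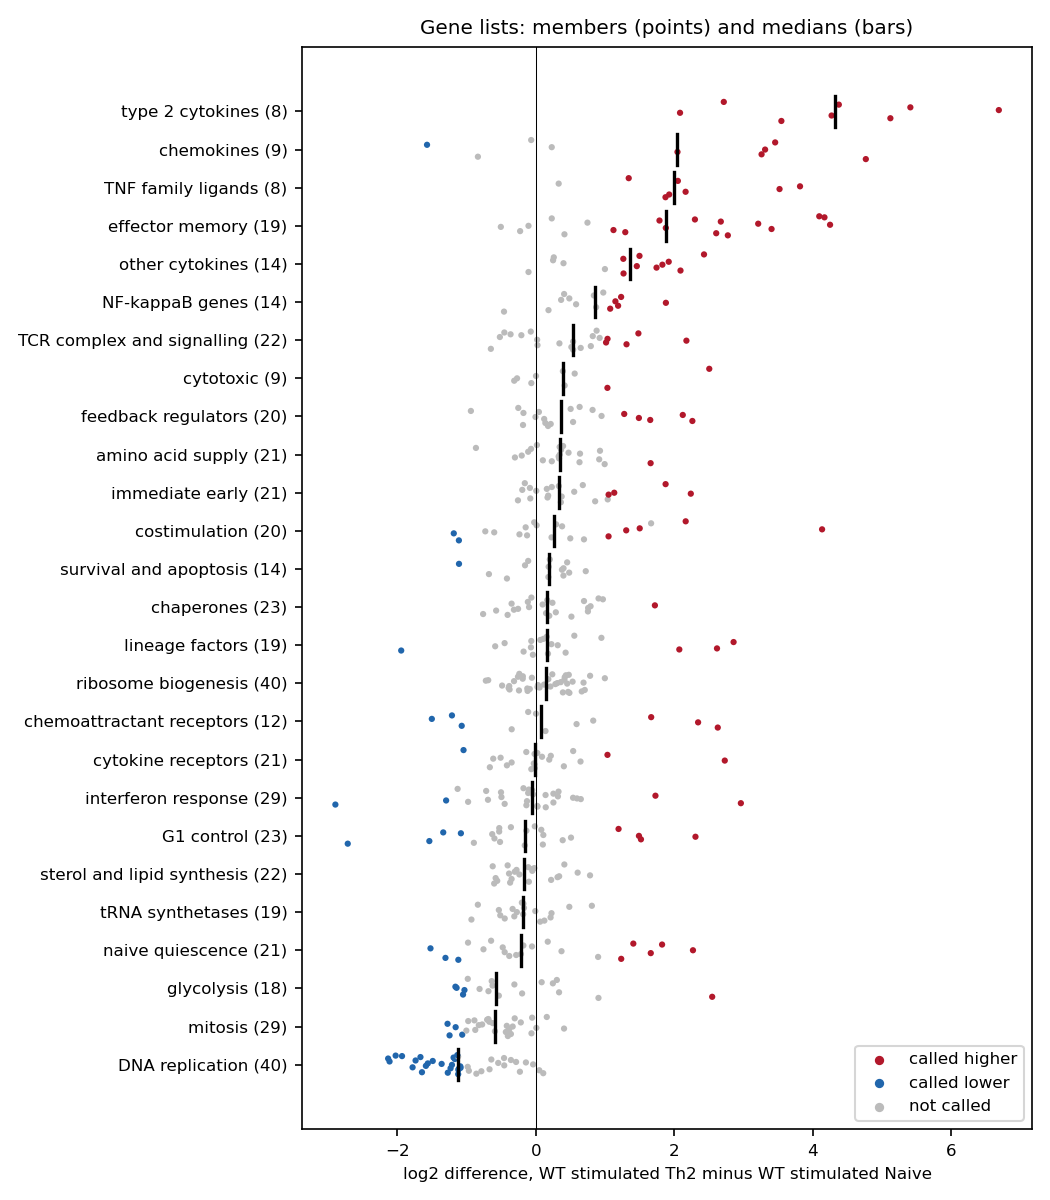
Log2 difference, WT stimulated Th2 minus WT stimulated Naïve, for the measured members of 26 gene lists (number of measured genes in brackets). Points are genes, red called higher, blue called lower and grey not called; black bars are list medians. Cytokine, TNF ligand, chemokine and effector lists lie to the right, DNA replication lies furthest to the left with 23 of 40 genes called lower, and ribosome biogenesis has no called gene.

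Transcription factor genes that respond within minutes to an hour differed less than the cytokine genes. Of 21 measured immediate early genes, 4 were called higher and none lower, with a median of 0.33. Ier3, a stress response gene, read 8.58, 8.61 and 8.76 against 6.28, 5.84 and 7.11 (difference 2.24, adjusted p = 0.000658). Nr4a3, an orphan nuclear receptor induced by calcium, differed by 1.88, Jun by 1.13 and Fosl1 by 1.05. Jun and Fosl1 lost their calls without background correction, and Nr4a3 without Th2 array A or Naïve array A. The AP-1 subunit Junb read 9.37, 9.39 and 9.34 against 9.22, 8.43 and 8.77 (0.56, adjusted p = 0.263), and the receptor-induced factor Egr1 differed by -0.26 (adjusted p = 0.703). Several of these genes were highest in resting Naïve cells taken directly from tissue: Fos read 11.27 there, against 6.05 in resting Th2, 5.52 in stimulated Naïve and 5.90 in stimulated Th2 cells. Of the same 21 genes, 13 were called lower in resting Th2 than in resting Naïve cells (background 8.01%).

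Members of the NF-kappaB pathway numbered 14, all measured, with 5 called higher, none lower and a median of 0.86. Nfkbid, an inhibitor-like regulator, read 10.97, 10.57 and 10.98 against 9.22, 9.01 and 8.66 (difference 1.88, adjusted p = 0.000582). The subunit genes Rela and Nfkb1 differed by 1.23 and 1.08, and the inhibitor genes Nfkbia and Nfkbie by 1.19 and 1.15. Without stimulated Th2 array B the Nfkbia difference was 0.9986, which ended its call, and Nfkbie lost its call without background correction. Among 20 measured feedback regulators 5 were called higher and none lower. Dusp4, a phosphatase of ERK and JNK, read 9.41, 9.82 and 9.63 against 7.60, 7.23 and 7.24 (2.26, adjusted p = 0.00297). Rgs16, which dampens G protein signals, differed by 2.12, Dusp6 by 1.65, Gadd45b by 1.49 and Sla by 1.28, whereas Cish, a target of IL-2 and STAT5, was at 11.25 to 11.50 in Th2 and 11.09 to 11.78 in Naïve cells. Dusp6 lost its call without Th2 array A or Naïve array C.

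Of 19 measured lineage transcription factors, 3 were called higher and 1 lower. Beside Gata3, these were Pparg, a nuclear receptor that acts in Th2 cells, and Id2, an inhibitor of E proteins. Pparg read 7.39, 7.52 and 6.60 and was undetected in stimulated Naïve cells, at least 5.73-fold lower there (adjusted p = 5.95e-07). Id2 read 8.16, 8.70 and 9.22 against 5.93, 5.90 and 6.41 (difference 2.62, adjusted p = 4.03e-06). Foxp3, the regulator of regulatory T cells, read 5.60, 5.31 and 5.66 in stimulated Th2 cells and 7.61, 7.84 and 6.94 in stimulated Naïve cells (-1.94, SE 0.27, adjusted p = 2.07e-05). It was highest in resting Naïve cells, at 8.83. Irf4, which T cell receptor signals induce, was at 10.08 to 10.46 in Th2 and 9.80 to 10.24 in Naïve cells, with overlapping groups.

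Effector and memory genes were the other large group that stood higher. Of 19 measured, 13 were called higher and none lower, with a median of 1.88. Vim, an intermediate filament protein, read 10.89, 10.95 and 10.91 against 6.79, 6.81 and 6.87 (difference 4.09, SE 0.26, adjusted p = 8.93e-10). Lgals1, the galectin-1 gene, read 11.21, 11.55 and 12.25 against 7.28, 7.12 and 7.86 (4.25, SE 0.33, adjusted p = 9.57e-09), and S100a6, a calcium-binding protein, read 8.99, 9.07 and 8.30 against 4.30, 4.57 and 4.98 (4.17, SE 0.30, adjusted p = 3.58e-09), with 1 of the 3 Naïve arrays detecting it. The state gap exceeded every within-group range in all of them. Further calls included Emp1 (3.41), Lgals3 (3.21), Ahnak (2.77), S100a10 (2.67) and Anxa2 (2.61). Cd44, the surface marker of antigen-experienced T cells, differed by 1.12 (adjusted p = 0.00227), whereas S100a4 (0.23) and Itgb1 (-0.10) were not called.

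The list of Naïve and quiescence genes was mixed, with 5 of 21 measured genes called higher, 3 lower and a median of -0.21. Il7r, the receptor chain for the survival cytokine IL-7, read 8.82, 9.07 and 8.97 against 6.78, 6.48 and 6.80 (difference 2.27, adjusted p = 4.73e-06). At rest it stood at 10.18 in Th2 and 10.20 in Naïve cells, so both stimulated states lay below rest and the Naïve state further. Igfbp4 (1.66), Slfn2 (1.41) and Btg1 (1.23), an antiproliferative gene, were also called higher. Klf3 was undetected in stimulated Th2 cells and at least 2.13-fold higher in stimulated Naïve cells (adjusted p = 0.000144), and Bach2, a repressor of effector genes, differed by -1.12. Klf3 lost its call without background correction, where it differed by -0.96.

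Receptor genes moved both ways. Of 12 measured chemoattractant receptors, 3 were called higher and 3 lower. Cxcr3, a receptor linked to Th1 cells, read 7.97, 7.40 and 8.01 against 5.78, 5.39 and 5.18 (difference 2.34, adjusted p = 3.36e-06). Receptors that place cells in lymphoid tissue stood lower, with Cxcr5 at -1.50 and Gpr183 at -1.21, and Ccr6 was undetected in stimulated Th2 cells (at least 1.73-fold higher in stimulated Naïve cells, adjusted p = 0.0104). Cxcr5 lost its call without background correction. Of 21 measured cytokine receptors only Il1r2 (2.73), the IL-1 decoy receptor, Il2rg (1.04) and Tgfbr3 (-1.04) were called. Il2rg and Tgfbr3 lay close to the threshold and lost their calls under Z-score normalization. Il2rg also lost its call without Th2 array B (0.87) or Naïve array C, and Tgfbr3 without Th2 array A (-0.72) or Naïve array A or C. The high-affinity IL-2 receptor chain Il2ra differed by 0.09.

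Of 20 measured costimulation and checkpoint genes, 5 were called higher and 2 lower. Havcr2, the TIM-3 gene whose promoter is printed above, read 9.41, 8.96 and 8.70 against 5.50, 4.55 and 4.61 (difference 4.14, SE 0.39, adjusted p = 2.03e-07). Tnfrsf9, which encodes 4-1BB, read 8.94, 9.29 and 9.05 against 6.64, 7.31 and 6.84 (2.17, adjusted p = 0.00128). Icos differed by 1.50, Ctla4 by 1.31 and Cd274, the PD-L1 gene, by 1.05. Ctla4 lost its call without Th2 array C or Naïve array A. The restraining receptors Cd6 (-1.18) and Btla (-1.11) stood lower. Tnfrsf4, the OX40 gene, differed by 1.67, but its arrays spread over more than 2 log2 units in stimulated Naïve cells (7.97, 10.30 and 10.51) and it was not called (adjusted p = 0.146). In the T cell receptor complex and its signalling chain, 5 of 22 measured genes were called higher and none lower. Lat, the adaptor that links the receptor to calcium and Ras signalling, read 10.13, 9.53 and 9.41 against 7.02, 7.37 and 8.14 (2.18, adjusted p = 0.00152). Cd3g differed by 1.31 while Cd3e differed by 0.03 and Cd3d by 0.80 (adjusted p = 0.0234).

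Cytotoxic genes were mostly not called, with 2 of 9 measured higher. Srgn, the proteoglycan of secretory granules, read 10.69, 10.62 and 10.77 against 7.46, 8.41 and 8.69 (difference 2.51, adjusted p = 4.03e-06), and Ctsw, which lost its call without background correction, differed by 1.04. Prf1 (0.39) and Nkg7 (0.56) had overlapping groups.

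DNA replication was the list with the largest shift towards stimulated Naïve cells. Of 44 genes listed, 42 were on the array and 40 were measured. None was called higher and 23 were called lower in stimulated Th2 cells (background 4.04%), with a median of -1.12. Rpa1, which coats single-stranded DNA, read 9.27, 9.09 and 9.69 against 11.41, 11.48 and 11.56 (difference -2.13, SE 0.14, adjusted p = 1.42e-09). Prim2, a primase subunit, read 4.54, 4.69 and 5.23 against 6.74, 6.94 and 7.12 (-2.11, SE 0.22, adjusted p = 7.01e-07). Tyms, which makes thymidylate, read 7.83, 7.94 and 8.86 against 10.19, 9.86 and 10.64 (-2.02, SE 0.36, adjusted p = 0.000393). Each of these had all Th2 arrays below all Naïve arrays. Tk1, thymidine kinase, read 6.45, 6.64 and 6.90 against 8.74, 8.22 and 8.83 (-1.93, adjusted p = 1.99e-05). Mcm4, part of the replicative helicase, read 10.12, 10.09 and 10.63 against 12.10, 12.10 and 11.97 (-1.78, adjusted p = 1.42e-07). The other helicase genes Mcm2, Mcm3, Mcm6 and Mcm7 were called as well, at -1.23, -1.09, -1.09 and -1.59, and Mcm5 fell just short at -0.98. The replication clamp gene Pcna (-0.04) and the licensing factor Cdt1 (0.11) did not share the shift.

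Stimulated Th2 cells reached this lower level from above, and stimulated Naïve cells reached the higher level from below. At rest, 28 of the 40 replication genes were called higher in Th2 than in Naïve cells (background 7.77%), with a median of 1.39. During the stimulation of Naïve cells 32 were called higher (background 12.1%; median 1.75), and during that of Th2 cells 12 were called lower (background 7.13%; median -0.66). These comparisons share arrays with the main one and with each other, so their values are given side by side only. The difference between the stimulated and the resting comparison was itself tested, and 35 of the 40 genes were below 0 by that test (background 9.93%). Tyms, for example, averaged 9.83 in resting and 8.21 in stimulated Th2 cells, and 7.57 in resting and 10.23 in stimulated Naïve cells.

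The promoters of Mcm7 and Pold1 are shown because they hold an E2F motif, TTTCCCGC or TTTGGCGC on either strand, in capitals. E2F factors drive replication genes at the entry into S phase.
Mcm7, chr5:138171834-138172133, minus strand: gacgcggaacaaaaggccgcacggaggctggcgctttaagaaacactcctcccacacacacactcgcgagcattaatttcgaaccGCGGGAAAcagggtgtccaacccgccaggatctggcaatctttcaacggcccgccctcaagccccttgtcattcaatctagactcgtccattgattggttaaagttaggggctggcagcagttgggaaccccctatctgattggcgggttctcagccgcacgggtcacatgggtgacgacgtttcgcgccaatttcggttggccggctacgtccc
Pold1, chr7:44548766-44549065, minus strand: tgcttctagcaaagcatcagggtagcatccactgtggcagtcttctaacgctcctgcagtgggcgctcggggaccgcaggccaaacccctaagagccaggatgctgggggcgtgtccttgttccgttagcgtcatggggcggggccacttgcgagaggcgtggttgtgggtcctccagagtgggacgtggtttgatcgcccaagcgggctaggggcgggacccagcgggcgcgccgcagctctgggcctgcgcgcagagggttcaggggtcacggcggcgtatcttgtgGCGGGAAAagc
Mcm7, at 6.14, 5.80 and 6.19 against 6.83, 7.94 and 8.13, differed by -1.59 (adjusted p = 0.0218), and Pold1, the catalytic subunit of DNA polymerase delta, differed by -1.56 (adjusted p = 7.32e-06). Of 34 replication genes with a promoter in the table, 9 held the motif (26.5%). Of the 19 among them that were called lower, 4 held it (21.1%). Counts this small cannot show whether the motif marked the replication genes called lower. The share was 6.74% of all genes called lower, replication genes included, 2.98% of genes called higher and 2.76% of all tested genes. These shares are descriptions, without a test.

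Mitosis genes shifted less, with 4 of 29 measured called lower (13.8%, background 4.04%), none higher and a median of -0.59. Aurka, a mitotic kinase, read 7.02, 7.05 and 7.06 against 8.39, 7.91 and 8.56 (difference -1.24, adjusted p = 0.000112). Kif2c (-1.27) and Espl1 (-1.16) were called too, but not without background correction. Birc5 (-1.06, adjusted p = 0.0356) lost its call under 10 alternatives, among them median scaling and leaving out Th2 array A or B or Naïve array A or C. At rest 24 of the 29 genes were called higher in Th2 cells (background 7.77%), with a median of 2.17. Stimulation of Th2 cells took 21 lower (median -1.32, background 7.13%), and stimulation of Naïve cells took 22 higher (median 1.56, background 12.1%).

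**Figure D4:**
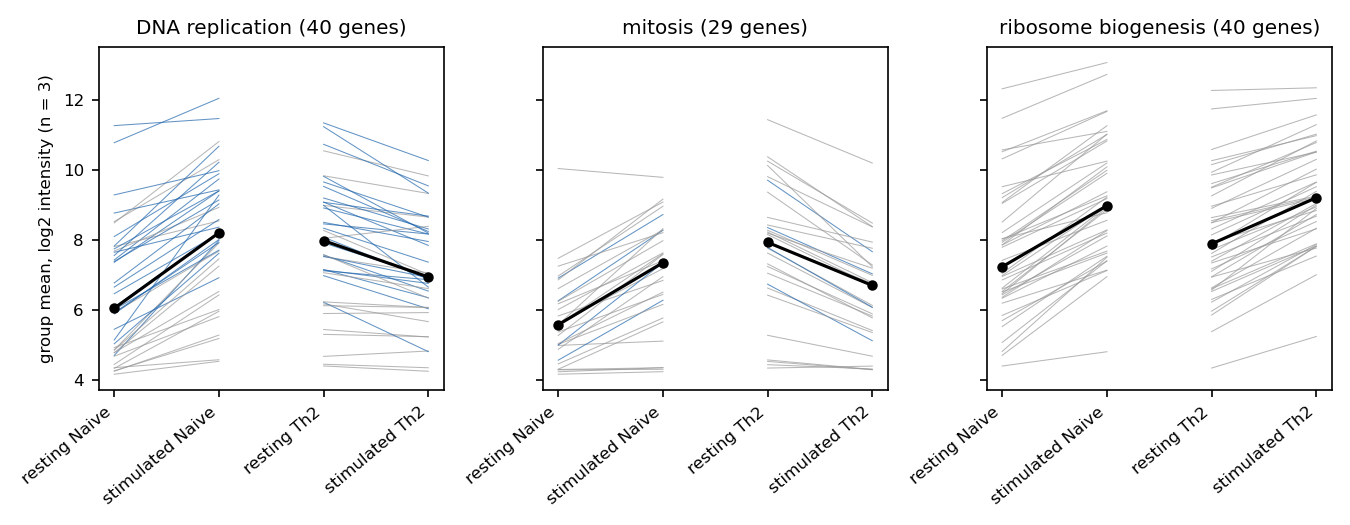
Group mean log2 intensity (n = 3 WT arrays) of each measured DNA replication, mitosis and ribosome biogenesis gene at rest and after stimulation; thin lines join the means of 1 gene within a lineage, blue where the gene was called lower in stimulated Th2 than in stimulated Naïve cells, and black points are list medians. In the first 2 panels the medians rise in Naïve cells and fall in Th2 cells, and in the third both rise and the stimulated states end near each other.

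Regulators of the G1 phase were split, with 4 of 23 measured called higher and 4 lower. Ccnd3, the cyclin D3 gene, read 7.35, 7.82 and 7.41 against 10.37, 10.00 and 10.36 (difference -2.71, SE 0.20, adjusted p = 5.94e-09). At rest it stood at 11.04 in the Th2 and at 10.38 in the Naïve state, so the stimulated Th2 state stood apart from the other three. Cdk2 (-1.54), E2f2 (-1.34) and E2f1 (-1.08) were also lower. The cell cycle inhibitors Cdkn2a, Cdkn2b (1.49) and Cdkn1a (1.52) stood higher, as did the growth regulator Myc, at 7.91, 7.60 and 7.23 against 6.31, 6.48 and 6.36 (1.20, adjusted p = 0.00828). Cdkn2a, which encodes p16 and p19Arf, was undetected in stimulated Naïve cells and at least 4.07-fold higher in stimulated Th2 cells (adjusted p = 1.89e-07). Cdkn1a had an adjusted p of 0.0256 and lost its call when stimulated Th2 array A or B or stimulated Naïve array B or C was left out. Ccnd2, bright on all 6 arrays (11.61 to 12.01), differed by 0.10.

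Growth and metabolism lists held few calls, apart from glycolysis. None of 40 measured ribosome biogenesis genes was called by limma in either direction, while 14 had an unadjusted p below 0.05 and 6 an adjusted p below 0.05. Over all 10418 genes, 3291 had an unadjusted limma p below 0.05 and 2207 an adjusted p below 0.05. These are the background for such counts in this paragraph. Their values ran from -0.72 to 1.00 with a median of 0.15. Stimulation took 25 of them higher in Th2 cells (background 5.85%) and 34 higher in Naïve cells (background 12.1%). Npm1 read 12.46, 12.35 and 12.27 against 12.77, 13.43 and 13.04, a difference of -0.72 with an adjusted p of 0.0107 that stayed under the 2-fold limit. No gene of 19 tRNA synthetases and none of 22 sterol and lipid synthesis genes was called by limma, with 6 and 4 at an unadjusted p below 0.05. Of 21 amino acid supply genes, Atf4 alone was called, a regulator of amino acid stress responses that read 10.81, 10.59 and 10.34 against 8.44, 9.36 and 8.97 (1.66, adjusted p = 0.00101). Of 23 chaperone genes, Hspa5, the chaperone BiP of the endoplasmic reticulum, alone was called (1.72, adjusted p = 1.92e-06). In glycolysis 1 of 18 measured genes was called higher and 4 lower (22.2%, background 4.04%), with a median of -0.58 and 6 genes at an adjusted p below 0.05. Ldha, lactate dehydrogenase, read 11.80, 11.43 and 11.84 against 12.42, 12.73 and 13 (-1.03, adjusted p = 7.74e-05), and Pfkm, Pfkl and Eno3 differed by -1.16, -1.14 and -1.05. Pfkm and Eno3 lost their calls without background correction, and Pfkl without array C of either state. Aldoc went the other way, at 2.55, and was also higher in Th2 cells at rest. Of 14 measured survival genes, Birc2 (-1.11) was the only call, lost without Naïve array A.

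Of 29 measured interferon response genes, 2 were called higher and 2 lower, with a median of -0.05. Gbp2, a guanylate-binding protein induced by interferon-gamma, read 9.69, 9.50 and 10.09 against 12.69, 12.65 and 12.62 (difference -2.89, SE 0.24, adjusted p = 3.31e-08). It was at 9.64 and 9.79 in the resting states, so stimulated Naïve cells stood apart. Igtp, another such GTPase, differed by -1.29. Ifi27l2a read 11.27, 11.35 and 10.34 against 7.55, 7.98 and 8.55 (2.96, adjusted p = 0.000188), and Isg20 was undetected in stimulated Naïve cells (at least 2.38-fold higher in stimulated Th2 cells, adjusted p = 0.00116).

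The genes furthest below in stimulated Th2 cells included several best known from antigen-presenting cells. Cd40 read 5.01, 4.67 and 6.18 against 9.32, 8.48 and 8.72 (difference -3.55, SE 0.38, adjusted p = 9.56e-07). Ido1, which degrades tryptophan, read 4.29, 4.47 and 5.0 against 7.84, 7.51 and 8.63 (-3.41, SE 0.29, adjusted p = 4.15e-08), with 1 of the 3 Th2 arrays detecting it. Cd86, a ligand of CD28, read 4.63, 4.85 and 5.68 against 7.81, 7.51 and 7.96 (-2.71, SE 0.29, adjusted p = 1.20e-06). Fscn1, an actin-bundling protein of mature dendritic cells, differed by -2.52, Il4i1 by -2.51 and Mreg by -2.26. Markers of other cells were therefore read beside them. Of 12 measured B cell markers 1 was called lower, Fcer2a, undetected in stimulated Th2 cells and at least 2.85-fold higher in stimulated Naïve cells (adjusted p = 2.59e-05), and the median was -0.44. The summed linear intensity of these markers was 620 to 1306 on the stimulated Th2 arrays and 1124 to 2257 on the stimulated Naïve arrays, against 14974 to 18344 on the resting Naïve arrays. The 11 measured myeloid markers summed to 236 to 297 and 232 to 303 in the stimulated states and to 2590 to 7407 in resting Naïve cells. Of the 11, 10 had a difference below 0, with a list median of -0.08. Only 2 of them were detected on each stimulated Th2 array and 2 to 3 on the stimulated Naïve arrays, so most of these signs rest on background values. Fcer1g (-0.75, adjusted p = 0.158) and S100a8 (-0.72, adjusted p = 0.449) were furthest below, without being called, and stayed below 0 when any 1 of the 6 arrays was left out. Fcer1g was detected on 1 of 3 stimulated Th2 and all 3 stimulated Naïve arrays, and S100a8 on none and 1. Lyz2, Cd14 and Tyrobp were undetected in both states and Csf1r was near the detection limit. Adgre1 was called higher in stimulated Th2 cells (at least 2.63-fold, adjusted p = 0.0148), a call lost without array A or B of that group. The part of residual other cells in the genes of antigen-presenting cells was not tested. Further genes far below were Snn (-2.98), Pacsin1 (-2.36), Zranb3 (-2.35), Pxylp1 (-2.27), Rbms2 (-2.25), Actn1 (-2.21) and Cyria (-2.21).

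The comparison at rest, on arrays that the stimulated comparison does not use, had 809 genes higher (7.77%) and 835 lower (8.01%) in Th2 cells. Of the 431 genes higher after stimulation, 110 were also called higher at rest (25.5% of the 431 and 13.6% of the 809), and 57 were called lower at rest. Of the 421 lower genes, 96 were called lower at rest (22.8% and 11.5%) and 57 higher. Resting Naïve arrays carried the summed B cell, myeloid and erythroid signals given above or, for 5 erythroid genes, 395 to 16373, so that the resting values include whatever those cells contribute, and their part was not tested.

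Several named genes had a large difference in both settings. Ecm1 differed by 5.40 when stimulated and 5.34 at rest, and the difference between these was 0.06 (SE 0.27, adjusted p = 0.905). Lgals1 differed by 4.25 and 4.08 (0.17, SE 0.46, adjusted p = 0.833) and Anxa2 by 2.61 and 2.25 (0.35, SE 0.33, adjusted p = 0.489). For these genes a change of the lineage difference with stimulation was not detected. Gata3 differed by 2.07 and 1.62 (0.45, SE 0.25, adjusted p = 0.217). Several cytokine genes differed little at rest. Il3, Csf2, Il5 and Il13 differed by 0.09, 0.25, 0.29 and 0.17 at rest, and Inhba by 0.34, and the change with stimulation was called in all of them. Il4 and Il24 differed already at rest, by 2.49 and 4.04, and by more when stimulated (changes of 1.88, adjusted p = 0.0495, and 2.65, adjusted p = 0.00653).

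Nfkbid, Jun and Areg, genes induced by activating signals, were among the 57 genes called lower in Th2 cells at rest and higher when stimulated. Nfkbid was 3.93 lower in Th2 than in Naïve cells at rest and 1.88 higher when stimulated. Jun was lower by 3.25 at rest and higher by 1.13 when stimulated, and Areg went from -1.73 to 3.55. Nfkbid and Jun were high in resting Naïve cells, at 11.38 and 7.95, and lower after 24 h of stimulation. Over all genes the change of the Th2 minus Naïve difference was called above 0 for 897 genes (8.61%) and below 0 for 1034 (9.93%).

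The same comparison on the 6 arrays of BAF180-deficient cells gave 427 genes higher (4.1%) and 431 lower (4.14%). Of the 431 genes higher in WT, 326 were called higher in BAF180-deficient cells (75.6% of the WT and 76.3% of the BAF180-deficient list), and all 431 had the same sign. Of the 421 lower genes, 299 were called lower (71.0% and 69.4%), again all with the same sign. The median difference of the WT list was 1.39 in BAF180-deficient cells for the higher genes and -1.19 for the lower genes, against 1.49 and -1.22 in WT. Pbrm1 itself read 8.29 and 8.57 in WT stimulated Th2 and Naïve cells and 6.87 and 6.94 in the BAF180-deficient cells. Where its probe lies relative to the deleted part of the gene was not determined. Il24 differed by 6.48 in BAF180-deficient cells, Ecm1 by 5.27, Il4 by 4.34 and Il10 by 4.36. Replication genes were called lower in 21 of 40 cases.

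No gene passed the limma threshold for a difference between genotypes in this comparison (0%). Of all 10418 genes tested, only 155 had an unadjusted limma p below 0.05, and the lowest adjusted p was 0.269. The methods' criteria gave 1 gene, as did Z-score normalization. The lowest p was that of Upp1, uridine phosphorylase, which differed by 2.08 in WT (7.13, 7.37 and 7.0 against 5.32, 4.64 and 5.29) and by 0.36 in BAF180-deficient cells. Nrn1 differed by 2.44 and 0.58, and Plk2 by 1.95 and 0.82, each with an interaction adjusted p of 1.00. Ifng differed by 1.27 and 0.21 (unadjusted p = 0.0791). None of these genotype differences held after adjustment. The test did not pair WT with BAF180-deficient arrays, although the mice formed such pairs. B cell marker sums of arrays A, B and C were 826, 620 and 1306 in WT stimulated Th2 cells. In BAF180-deficient stimulated Th2 cells they were 993, 729 and 1649, in the same order. If the letters mark pairs, an unpaired test can miss differences that are steady within pairs.

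**Figure D5:**
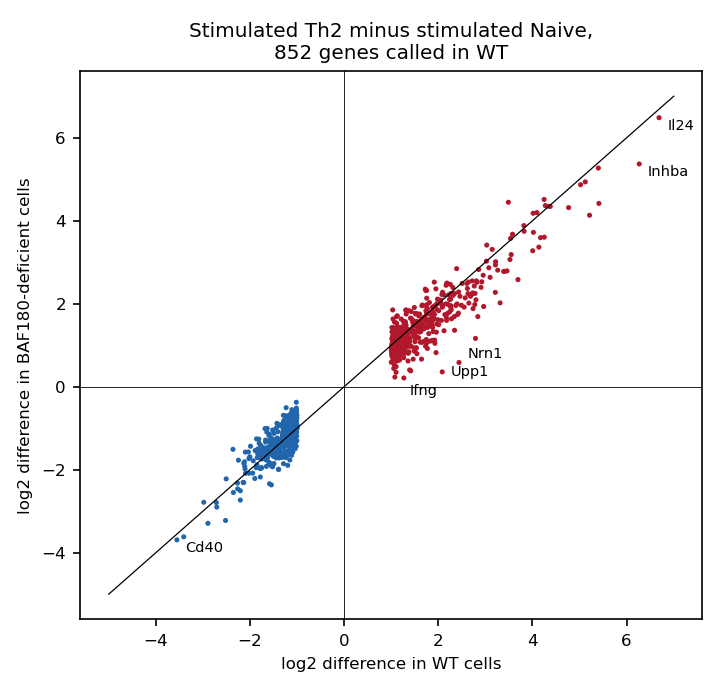
Log2 difference, stimulated Th2 minus stimulated Naïve, in WT (x axis) and BAF180-deficient cells (y axis) for the 852 genes called in WT, red higher and blue lower, with the line of equality; each axis rests on 3 arrays per state. All points lie in the lower left or upper right quadrant, and Upp1 and Nrn1 lie below the line, at 2.08 and 2.44 in WT against 0.36 and 0.58 in BAF180-deficient cells.

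Called genes also differed in gene length. Genes higher in stimulated Th2 cells had a median length of 16 kb and lower genes one of 28.1 kb, where all 10296 genes with a length had 20.5 kb. Of the longest 10% of genes 6.02% were called lower, and of the shortest 10% 2.72%. In BAF180-deficient cells the medians were 19.2 and 24.6 kb, closer to each other. Across genes the rank correlation of the difference with length was -0.0537 in WT and -0.00636 in BAF180-deficient cells, a weak relation in which genes are not independent replicates. The NF-kappaB motif was held by 12.2% of promoters of higher genes, 10.3% of lower and 9.95% of tested genes, and the E-box CACGTG, which MYC binds, by 9.52%, 10.9% and 9.91%.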

How the data were processed

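Transcript levels came from Illumina MouseRef-8 v2 BeadChips. The authors deposited an average intensity per probe, exported without background subtraction or normalization, with a detection p-value per probe and array, and the tables were made in GenomeStudio 1.6.0. From these, intensities were background-corrected and quantile-normalized with neqc of limma 3.58.1 (offset 16, R 4.3.3) on all 24 arrays, and the 14246 of 25697 probes that reached a detection p-value of 0.02 or lower on any array were retained. Group means of all 8 groups were fitted together with lmFit and eBayes, and p-values were Benjamini-Hochberg adjusted over the kept probes. A gene was represented by its brightest kept probe. "At least" folds set the mean of the bright group against, per array of the undetected group, the higher of the lowest detected signal and the probe's own signal. Array letters were treated as names, not as pairs. Gene symbols were updated through RefSeq tables (GRCm38.p6), and 321 probes kept the symbol of the table. The comparison, the gene lists and the genes named were chosen with earlier results of these data known. Named genes were the 15 largest differences each way, up to 4 called and 2 uncalled members per list, Il4, Il5, Il13, Il10, Ifng, Gata3, Tbx21, Foxp3, Cd4, Cd3e and Pbrm1, and the 5 lowest p for genotype. Other list members and locus neighbours were named after their values were seen. Methods were tested on simulated data. Alternatives were Z-score normalization, median scaling, no background correction, no or a stricter detection filter, a stricter adjusted p, normalization and fits on fewer arrays, other moderation, any probe of a gene, the methods' criteria, an array letter block, and leaving out each array. Some members of the gene lists are counted in the lists but not reported here by name.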

Additional observations from a re-analysis of the deposited data

Results flagged for a closer look

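The Th2 minus Naïve difference was not the same when stimulated as at rest. By a test of that change (limma, adjusted p below 0.05 and a change of at least 1 on the log2 scale), 897 genes were above 0 and 1034 below 0. Among the 109 named genes called in the stimulated comparison, 74 had an adjusted p below 0.05 for the change, 56 above 0 and 18 below. Without the limit on size, 2722 of all 10418 genes had such an adjusted p. The 109 were selected by their stimulated difference, which is part of the tested change, so a larger share among them was built in. The 5 furthest above were Inhba (5.93), Nfkbid (5.81), Havcr2 (5.33), Il3 (5.32) and Ccl5 (5.09). The 5 furthest below were Tyms (-4.28), Tk1 (-4.27), Kif2c (-4.06), Ido1 (-3.90) and Birc5 (-3.86), of which all but Ido1 serve DNA synthesis or mitosis. Ido1 was undetected on the resting Naïve arrays and detected on 1 of the 3 stimulated Th2 arrays. The resting Naïve arrays carried far more B cell, myeloid and, on some arrays, erythroid marker signal than the other WT arrays, and the part of this in the change was not tested.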

How the results depend on the processing

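Groups of 3 arrays, dim probes and the joint change of lineage, stimulus and time limit every value here. Genes lower in stimulated Th2 cells numbered 209 with Z-score normalization and 207 without background correction, against 421, so that 58.0% and 58.4% of calls were higher in place of 50.6%. Over all alternatives the counts ran from 288 to 536 higher and 207 to 576 lower. At rest 479 were higher without background correction, and 524 were lower with Z-scores, 546 without background correction and 543 by the methods' criteria. For the change with stimulation, 597 were above 0 with Z-scores and 553 by the methods' criteria, with 622 below by the latter. In BAF180-deficient cells 254 were lower with Z-scores, 657 with median scaling (which moved the median of all probes to -0.10) and 215 without background correction. Z-scores, the methods' criteria and leaving out BAF180-deficient stimulated Th2 array B each gave 1 gene for the genotype difference (0 to 1 without 1 array). Without 1 array the other counts were 409 to 443 and 374 to 484 when stimulated, 751 to 915 and 788 to 903 at rest, 841 to 989 and 941 to 1146 for the change, and 399 to 453 and 386 to 526 in BAF180-deficient cells. Same-letter WT arrays of stimulated Th2 and Naïve cells deviated together at correlations of 0.117, 0.00166 and 0.323. The letters were therefore not taken as pairs across these states, and WT and BAF180-deficient arrays of a letter were not checked. A replicate block on the letters within each genotype gave 443 and 433 when stimulated, 815 and 847 at rest, and 930 and 1073 for the change. It gave 439 and 443 in BAF180-deficient cells and 0 for genotype. Being built within genotypes, this block cannot take up an effect shared by WT and BAF180-deficient arrays of a letter. Of 109 named calls, 83 held under every alternative run, 26 were lost under at least 1 and 0 changed sign. The alternative of any probe takes only the probe with the largest difference. Of 52 called list or named genes with more than 1 kept probe, 47 had all probes of the same sign. Of 64 named genes not called, 7 were called under at least 1 alternative and 15 changed sign. With any probe of the gene these were Cd28 (0.66), Cd8b1 (-0.089), Hsp90ab1 (0.80), Hspa8 (-0.83) and Klf6 (0.70). With Z-scores they were Cd3e (-0.051), Lck (-0.045), Cd8b1 (-0.011), Prss34 (-0.0063) and Tnfrsf18 (-0.0090). Median scaling turned Gapdh (0.0053), Prss34 (-0.12) and Tnfrsf18 (-0.0099), WT arrays alone Cd8b1 (-0.00014), and no background correction Xcl1 (0.0051). Without 1 array the ranges were -0.31 to 0.66 for Ccl9, -0.37 to 0.14 for Cd28, -0.090 to 0.22 for Cd3e, -0.34 to 0.21 for Cd8b1, -1.42 to 0.29 for Hba-a1, -0.026 to 0.19 for Hspa8, -0.34 to 0.19 for Il16, -0.18 to 0.087 for Klf6, -0.28 to 0.19 for Lck, -0.28 to 0.0029 for Mcl1, -0.020 to 0.055 for Prss34, -0.28 to 0.43 for Tnfrsf18 and -0.90 to 0.51 for Xcl1. The causes of these shifts were not tested.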
